A study of Bos taurus with 6 samples.

Results

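The citric acid cycle and the pyruvate dehydrogenase complex that feeds it were examined in longissimus thoracis (LT) muscle of Korean cattle (Hanwoo) steers with a high or a low number of fine marbling particles (NFMP), the small flecks of intramuscular fat counted on a photograph of the cut muscle. A fixed list of 31 enzymes and regulators was taken, by gene symbol, from read counts listed for 23015 rows. All 31 were found, each in 1 row, and all 31 were among the 15039 rows left after low counts were filtered out. The list was set by name and not by any measured value, but with earlier results of these data known.

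The high-NFMP group held steers 3-8, 10-8 and 10-9, aged 32.5, 33.8 and 34.5 months, and the low-NFMP group held steers 3-1, 3-3 and 10-16, aged 37.8, 33.7 and 35.4 months. All 6 were castrated males of 1 breed, kept in the usual manner on bought feed, and each gave 1 library of LT muscle. The groups were chosen by NFMP rather than made by a treatment, so whatever else differs between the steers, age included, cannot be told apart from NFMP with 3 animals a group. The paper reports that the sequenced high-NFMP steers also had a higher marbling score and a larger rib eye area. The libraries were made by a 3′ mRNA method, in which reads start near the poly(A) tail, so that a longer transcript does not yield more reads and counts of different genes can be set beside each other without division by length. The normalized count used throughout is the read count scaled to the mean effective library size of 16799032 reads. Totals lay between 16283873 and 17192750 reads a library.

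Pyruvate dehydrogenase joins glycolysis to the citric acid cycle by turning pyruvate into acetyl-CoA inside the mitochondrion. Pyruvate dehydrogenase kinases switch the complex off by phosphorylation, and phosphatases switch it on again. The cycle then oxidizes the acetyl group in a ring of reactions and passes the electrons to the respiratory chain, and citrate that leaves the ring supplies carbon for fatty acid synthesis. The malate-aspartate shuttle, the malic enzymes and pyruvate carboxylase move carbon and reducing power in and out of the cycle. In skeletal muscle these enzymes are most abundant in oxidative fibres, which are rich in mitochondria.

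The 31 genes were expressed at very different levels, from PDP2 with a mean of 37.6 normalized counts over the 6 steers to MDH2 with 10809. MDH2, the mitochondrial malate dehydrogenase that closes the cycle, and GOT2, the mitochondrial aspartate aminotransferase of the shuttle, at 8997, stood well above the rest. The next were the succinyl-CoA ligase alpha subunit SUCLG1 at 4198, citrate synthase (CS) at 3358, SUCLG2 at 2939 and PDHA1 at 2861. At the low end, below 150 normalized counts, were PC, ME3, DLST, PDK3 and PDP2. PDHA1 and DLST overlap other genes, as described below, so their places in this order are uncertain. PDP2 rested on only 21 to 60 reads a library, so its relative counting error was the largest of the list. Together the 31 genes took between 0.263% and 0.335% of the reads of a library. Their summed normalized counts were 43420 in steer 3-8, 56065 in 10-8 and 56354 in 10-9, against 50844 in 3-1, 48375 in 3-3 and 58109 in 10-16. The sums of the groups overlapped, and steer 3-8 had the lowest of the 6.

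**Figure D1:**
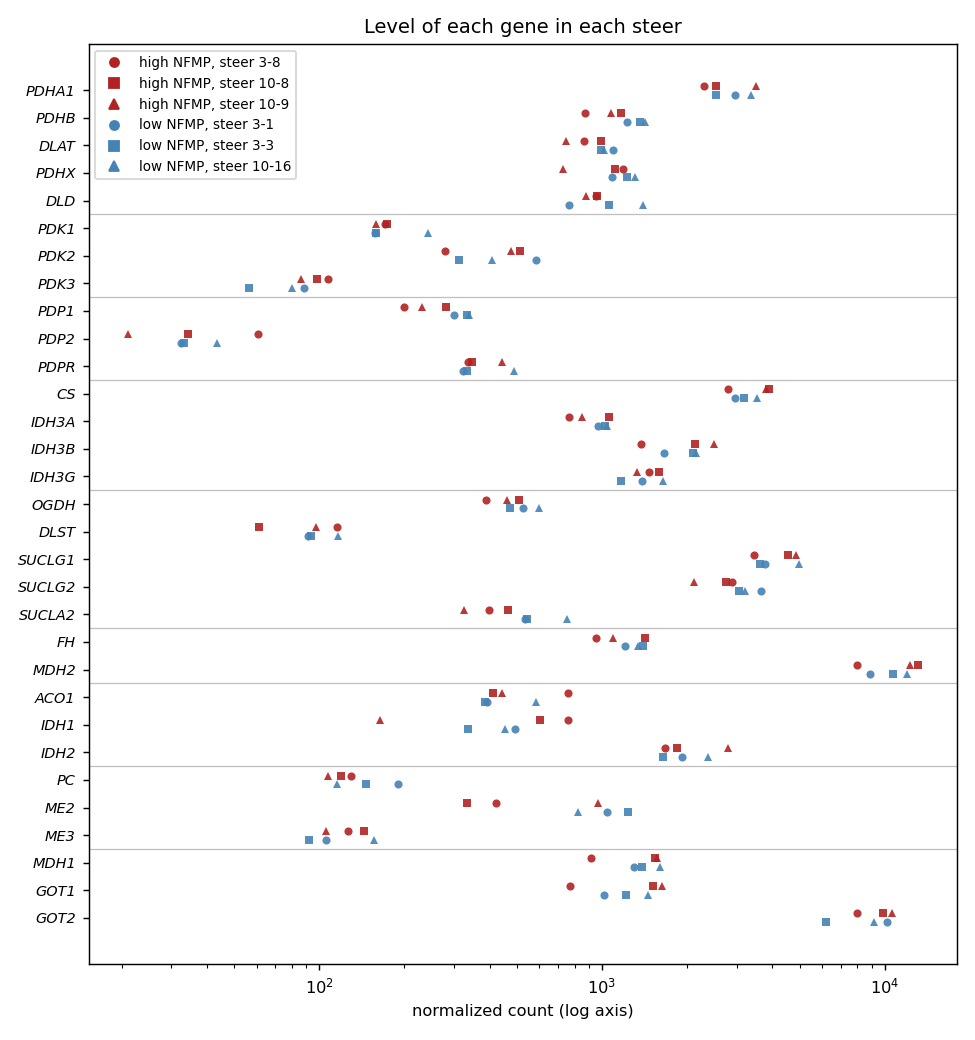
Normalized count of each of the 31 genes (log axis) in each of the 6 steers, red for high NFMP and blue for low NFMP, with grey lines between the 9 roles. MDH2 and GOT2 lie highest and PDP2 lowest, and for 26 of the 31 genes the red and blue points overlap.

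Between high and low NFMP, edgeR's quasi-likelihood test gave 3 of the 31 genes an unadjusted p below 0.05, and all 3 were lower in the high-NFMP group. They were SUCLA2, the beta subunit of the ADP-forming succinyl-CoA ligase, ME2, a mitochondrial malic enzyme, and PDP1, the main catalytic subunit of pyruvate dehydrogenase phosphatase in muscle. A share of 3 in 31 was no larger than the 11.5% of all tested rows with such a p in either direction, while 5.74% of all rows were lower and 5.73% were higher at that p. Adjusted p-values of the 31 genes were all above 0.05 (0.685% of all rows were below it), the smallest being 0.262 for SUCLA2 by edgeR, and with DESeq2 and with limma also 0 of the 31 were below 0.05. None was past a fold change of 2 together with that unadjusted p, the threshold of the methods, which 3.9% of all rows passed.

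The groups did not overlap for 5 genes, PDHB, DLAT, PDP1, SUCLG2 and SUCLA2. In each of the 5, all 3 high-NFMP steers lay below all 3 low-NFMP steers. Among all tested rows the groups did not overlap for 17.1%, with the high-NFMP steers below in 9.16% and above in 7.97%, so 5 of 31 in either direction was close to the background. The median log2 fold change of the 31 was -0.09, against 0.02 over all rows, with 18 values below 0 and 13 above. The fold change of 29 of the 31 lay between -0.5 and 0.5 on the log2 scale.

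**Figure D2:**
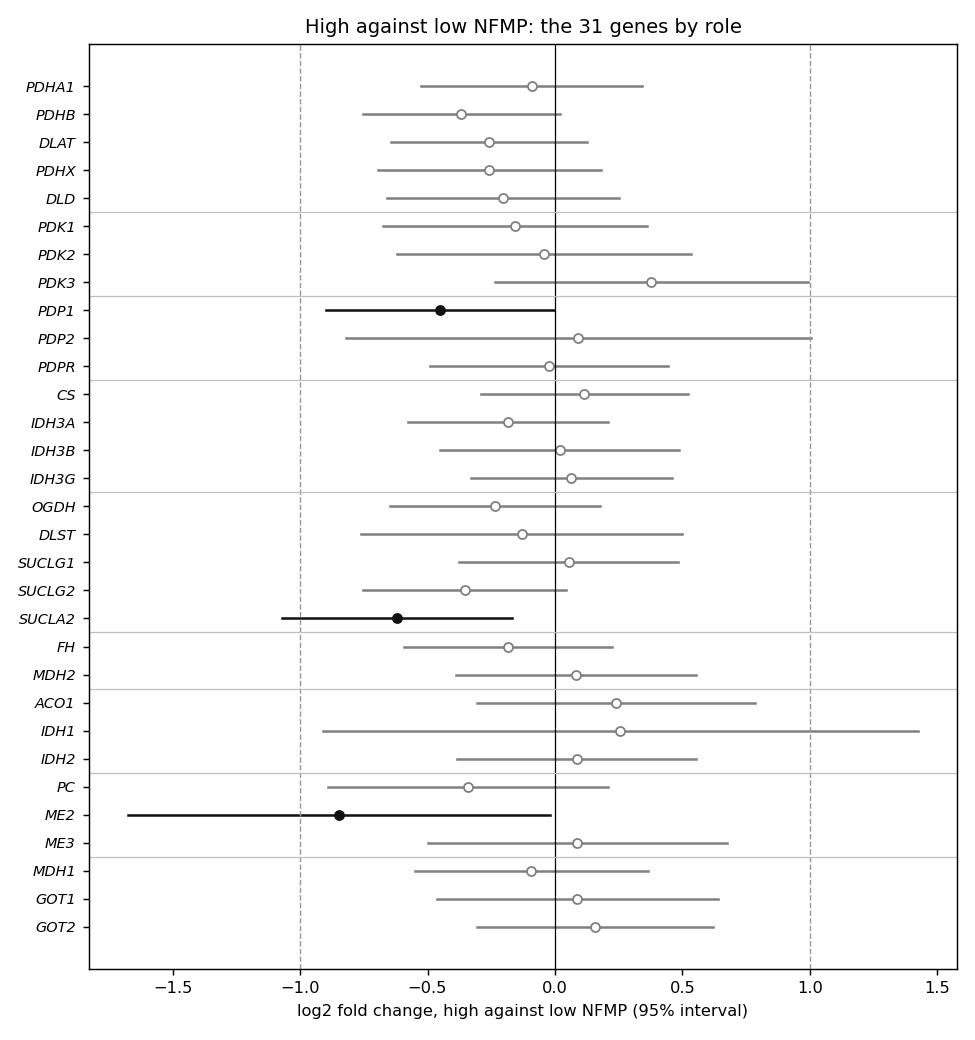
Log2 fold change of high against low NFMP for the 31 genes, with 95% intervals from edgeR's quasi-likelihood fit (n = 3 steers a group), filled black where the unadjusted p was below 0.05, and dashed lines at a fold of 2. The intervals of 27 genes lie inside the dashed lines, those of SUCLA2, ME2, PDP2 and IDH1 reach past them, and SUCLA2, ME2 and PDP1 are the filled points.

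How large a difference these libraries leave possible can be read from the 95% intervals. For 27 of the 31 genes the interval lay within a fold change of 2 in either direction. For CS, often used as a measure of mitochondrial content, it ran from -0.29 to 0.52 around a log2 fold change of 0.11, and for SUCLG1 from -0.38 to 0.49 around 0.05. The exceptions were SUCLA2 (-1.07 to -0.17), ME2 (-1.68 to -0.02), PDP2 (-0.82 to 1.00) and IDH1 (-0.91 to 1.43). Intervals that span 0 do not show that the levels were equal.

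SUCLA2 showed the smallest p of the list. The enzyme it belongs to cleaves succinyl-CoA to succinate and makes ATP, and SUCLA2 pairs in it with the alpha subunit SUCLG1, which in the GTP-making version is paired with SUCLG2. SUCLA2 had 399, 467 and 325 normalized counts in the high-NFMP steers 3-8, 10-8 and 10-9, compared with 535, 541 and 752 in the low-NFMP steers 3-1, 3-3 and 10-16. All high-NFMP values lay below all low-NFMP values, with steer 10-9 lowest and steer 10-16 highest. The means were 397 ± 70.9 and 609 ± 124 (SD, n = 3 each), and the log2 fold change was -0.62 (standard error (SE) 0.21, unadjusted p = 0.0106, adjusted p = 0.262 by edgeR). The unadjusted p rose to 0.0502 without steer 10-9 and to 0.0952 without steer 10-16, with log2 fold changes of -0.48 and -0.41, and stayed below 0.05 in the other 12 alternative fits.

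The GTP-forming beta subunit SUCLG2 was more abundant, with 2893, 2735 and 2112 normalized counts in the high-NFMP steers compared with 3641, 3055 and 3198 in the low-NFMP steers. These did not overlap either, although steer 3-8 and steer 3-3 differed little. The log2 fold change of -0.35 (SE 0.19) had an unadjusted p of 0.078 by edgeR. SUCLG1, the subunit common to both enzymes, had 3438, 4550 and 4842 against 3781, 3613 and 4963, and its groups overlapped fully. The count of SUCLA2 was between 0.138 and 0.171 of that of SUCLG2 in the high-NFMP steers and between 0.147 and 0.235 in the low-NFMP steers. This ratio overlapped between the groups (exact permutation test, two-sided p = 0.4, where the smallest p that 3 against 3 steers allow is 0.1).

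ME2 makes pyruvate from malate inside the mitochondrion and carries electrons to NAD+. It was counted at 422, 333 and 967 normalized counts in the high-NFMP steers 3-8, 10-8 and 10-9 and at 1043, 1231 and 825 in the low-NFMP steers 3-1, 3-3 and 10-16. Steers 3-8 and 10-8 lay far below all others, whereas steer 10-9 lay within the range of the low-NFMP group, so the groups overlapped. The means were 574 ± 343 and 1033 ± 203 (SD, n = 3 each), with a log2 fold change of -0.85 (SE 0.37, unadjusted p = 0.0461, adjusted p = 0.427 by edgeR). Steer 10-9 decided the value. Without it the log2 fold change was -1.44 with an adjusted p of 0.0173 by edgeR, the only fit in which any of the 31 genes had an adjusted p below 0.05 or passed the fold change of 2. Without steer 3-8, 10-8, 3-1 or 3-3 the unadjusted p was between 0.0918 and 0.152, and without steer 10-8 the log2 fold change was -0.53.

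ME3, which does the same reaction with NADP+, had between 105 and 143 normalized counts in the high-NFMP steers and between 91.6 and 156 in the low-NFMP steers, and its log2 fold change was 0.09 (SE 0.27). The ratio of ME3 to ME2 ran from 0.109 in steer 10-9 to 0.431 in steer 10-8 within the high-NFMP group alone. In the low-NFMP steers it was between 0.0748 and 0.190 (exact permutation test, two-sided p = 0.2). Pyruvate carboxylase (PC), which refills the cycle with oxaloacetate, was rare, at 119 ± 11.2 against 150.3 ± 37.4 normalized counts (SD, n = 3 each), with a log2 fold change of -0.34 (SE 0.26, unadjusted p = 0.206 by edgeR).

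**Figure D3:**
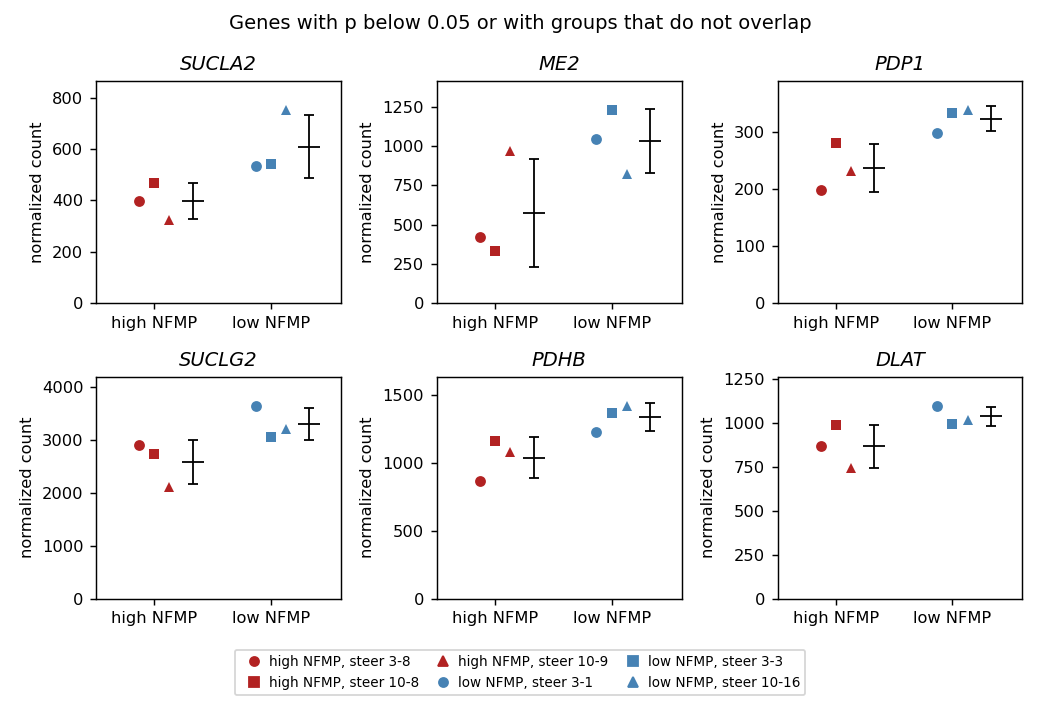
Normalized counts of the 3 genes with an unadjusted p below 0.05 (SUCLA2, ME2, PDP1) and of the other 3 genes whose groups did not overlap (SUCLG2, PDHB, DLAT), 1 point a steer, with the mean and SD of each group (n = 3) in black. ME2 alone shows an overlap, through high-NFMP steer 10-9 at 967 and low-NFMP steer 10-16 at 825.

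Of the 5 core subunits of the pyruvate dehydrogenase complex none had a p below 0.05. All 5 fitted fold changes were below 0 under every scaling tried. That of PDHA1 was above 0 with age as a term (0.09) and without steer 3-8, 10-8 or 10-16, and that of DLD was above 0 without steer 10-16 (0.06). After TMM (trimmed mean of M-values) scaling they lay between -0.37 and -0.09 on the log2 scale. PDHB, the beta subunit of the decarboxylase (E1), had 868, 1163.5 and 1078 normalized counts in the high-NFMP steers compared with 1226, 1364 and 1420.5 in the low-NFMP steers. Its groups did not overlap, and the log2 fold change was -0.37 (SE 0.18, unadjusted p = 0.0622, adjusted p = 0.468 by edgeR). DLAT, the acetyltransferase (E2) that forms the core of the particle, had 866, 988 and 745 against 1097, 995 and 1018, a log2 fold change of -0.26 (SE 0.18), and steer 10-8 lay just below steer 3-3. When the library totals were the scaling, PDHB had an unadjusted p of 0.0281.

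PDHA1, the alpha subunit of E1 and the target of the kinases, had 2294, 2526 and 3493 normalized counts in the high-NFMP steers compared with 2954, 2537 and 3363 in the low-NFMP steers, and the groups overlapped across their whole range. By the RefSeq annotation of cattle (ARS-UCD2.0), PDHA1 overlaps MAP3K15, and MAP3K15 was listed with nearly the same counts, 2174, 2200 and 3408 reads against 2264, 2273 and 3483 for PDHA1 in the high-NFMP steers. The sources used here do not say whether reads were assigned by strand, so the reads of these 2 genes cannot be told apart. PDHX, which anchors the E3 subunit, and DLD had log2 fold changes of -0.26 and -0.20 with SEs of 0.20 and 0.21. DLD is that E3 subunit, which the complex has in common with 2-oxoglutarate dehydrogenase. The summed normalized counts of the 5 subunits were 6170, 6752 and 6924 in the high-NFMP steers compared with 7129, 7177 and 8509 in the low-NFMP steers. These sums did not overlap under TMM, under the size factors of relative log expression (RLE) or under library totals alone, but under TMM and RLE this rested on PDHA1. Without PDHA1 the sums of the other 4 were 3876, 4226 and 3431 against 4175, 4640 and 5146, which overlapped through steers 10-8 and 3-1 under TMM, as they did under RLE, and did not overlap under library totals.

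The 3 listed kinases and the 3 listed phosphatase genes had fewer counts together than the core subunits. PDK2, the most abundant of the 3 listed kinases, had 279, 512 and 476 normalized counts in the high-NFMP steers compared with 584, 312 and 409 in the low-NFMP steers. It varied about as much within each group as over all 6 steers, and its log2 fold change was -0.04 (SE 0.27). PDK1 had 167 ± 7.86 against 186 ± 49.2 and PDK3 97.2 ± 10.6 against 74.7 ± 16.4 normalized counts (SD, n = 3 each), with unadjusted p of 0.532 and 0.208 by edgeR. The kinase PDK4, named after its values were seen because it is the other member of the family, was counted between 21092 and 50110 times a library, far above the 3 listed kinases. It had 29715, 23439 and 28605 normalized counts in the high-NFMP steers against 39432, 26047 and 50590 in the low-NFMP steers, a log2 fold change of -0.51 (SE 0.24, unadjusted p = 0.0556 by edgeR). Steer 3-3 lay among the high-NFMP values.

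PDP1 had 199, 281 and 232 normalized counts in the high-NFMP steers compared with 299, 334 and 339 in the low-NFMP steers. The groups did not overlap, and steer 10-8 came nearest to the low-NFMP steer 3-1. The means were 237 ± 41.5 and 324 ± 22.1 (SD, n = 3 each), with a log2 fold change of -0.45 (SE 0.21, unadjusted p = 0.0485, adjusted p = 0.433 by edgeR). This p passed 0.05 in 5 of the 14 alternative fits and missed it in 9, with a highest value of 0.153 without steer 10-16. PDP2, the second catalytic subunit, had log2 fold change 0.09 with an SE of 0.43, and steer 3-8 (60.8) and steer 10-9 (21.1) of the high-NFMP group were the highest and the lowest of the 6. PDPR, the regulatory subunit, had 334, 346 and 443 against 322, 333 and 487 normalized counts, and its groups had nearly the same range.

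In the first part of the cycle no gene had a p below 0.05. CS, which condenses acetyl-CoA with oxaloacetate, had 2786, 3884 and 3804 normalized counts in the high-NFMP steers compared with 2961, 3191 and 3523 in the low-NFMP steers. The lowest and the highest values both belonged to the high-NFMP group. The 3 subunits of the NAD-dependent isocitrate dehydrogenase had log2 fold changes of -0.18 for the catalytic IDH3A, 0.02 for IDH3B and 0.06 for IDH3G, with SEs between 0.18 and 0.22. IDH3B overlaps NOP56 in that annotation, and NOP56 had a mean of 639 against 1981 normalized counts for IDH3B.

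In the middle of the cycle, OGDH, the decarboxylating subunit of the 2-oxoglutarate dehydrogenase complex, had 388, 507 and 459 normalized counts in the high-NFMP steers against 524, 471 and 600 in the low-NFMP steers, a log2 fold change of -0.24 (SE 0.19, unadjusted p = 0.24 by edgeR). The groups overlapped through steers 10-8 and 3-3. DLST, the transferase of the same complex, was listed with a mean of 95.7 normalized counts, which is low beside its partner OGDH at 492. DLST overlaps RPS6KL1 in that annotation, and RPS6KL1 was listed with 1962, so the level of DLST is uncertain. In the last part, fumarate hydratase (FH) had a log2 fold change of -0.18 (SE 0.19). MDH2 had 7991, 13104 and 12253 normalized counts against 8884, 10674 and 11949, with steer 3-8 lowest and the other 2 high-NFMP steers highest.

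The side enzymes of isocitrate metabolism held the most variable gene of the list. IDH1, the cytosolic NADP-dependent isocitrate dehydrogenase that supplies NADPH for fatty acid synthesis, had 761, 606 and 164 normalized counts in the high-NFMP steers compared with 493, 335 and 453 in the low-NFMP steers. Steers 3-8 and 10-8 lay above every low-NFMP steer and steer 10-9 lay below every one, a 4.63-fold range within the group, against 1.47-fold in the low-NFMP group. The fitted log2 fold change of 0.26 (SE 0.50, unadjusted p = 0.621 by edgeR) became 0.69 with an unadjusted p of 0.00725 (adjusted p = 0.254) without steer 10-9. IDH2, its mitochondrial counterpart, had 1675, 1835 and 2780 normalized counts against 1920.5, 1643 and 2362, and steer 10-9 was the highest of the 6. The ratio of IDH2 to IDH1 was therefore 16.9 in steer 10-9 and between 2.20 and 5.21 in the other 5 steers. ACO1, cytosolic aconitase, which also binds iron-responsive elements in mRNA, had 756 in steer 3-8 and between 387 and 584 in the other 5.

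In the malate-aspartate shuttle, which carries cytosolic reducing power into the mitochondrion, no gene had a p below 0.05. GOT2 had 7979, 9869 and 10602 normalized counts in the high-NFMP steers compared with 10145, 6218 and 9171 in the low-NFMP steers, a log2 fold change of 0.16 (SE 0.22). The cytosolic partners MDH1 and GOT1 had log2 fold changes of -0.09 and 0.09, and steer 3-8 had the lowest value of the 6 for both, with 912 against 1295 to 1599 for MDH1 and 773 against 1017 to 1632 for GOT1. The ratio of MDH2 to MDH1 was 8.76, 8.51 and 7.85 in the high-NFMP steers compared with 6.86, 7.72 and 7.47 in the low-NFMP steers. It was the only 1 of 13 ratios between listed genes whose groups did not overlap, by a mean difference of 0.19 on the log2 scale. It reached the smallest p of the exact permutation test, p = 0.1 (adjusted over the 13 ratios, p = 0.65).

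**Figure D4:**
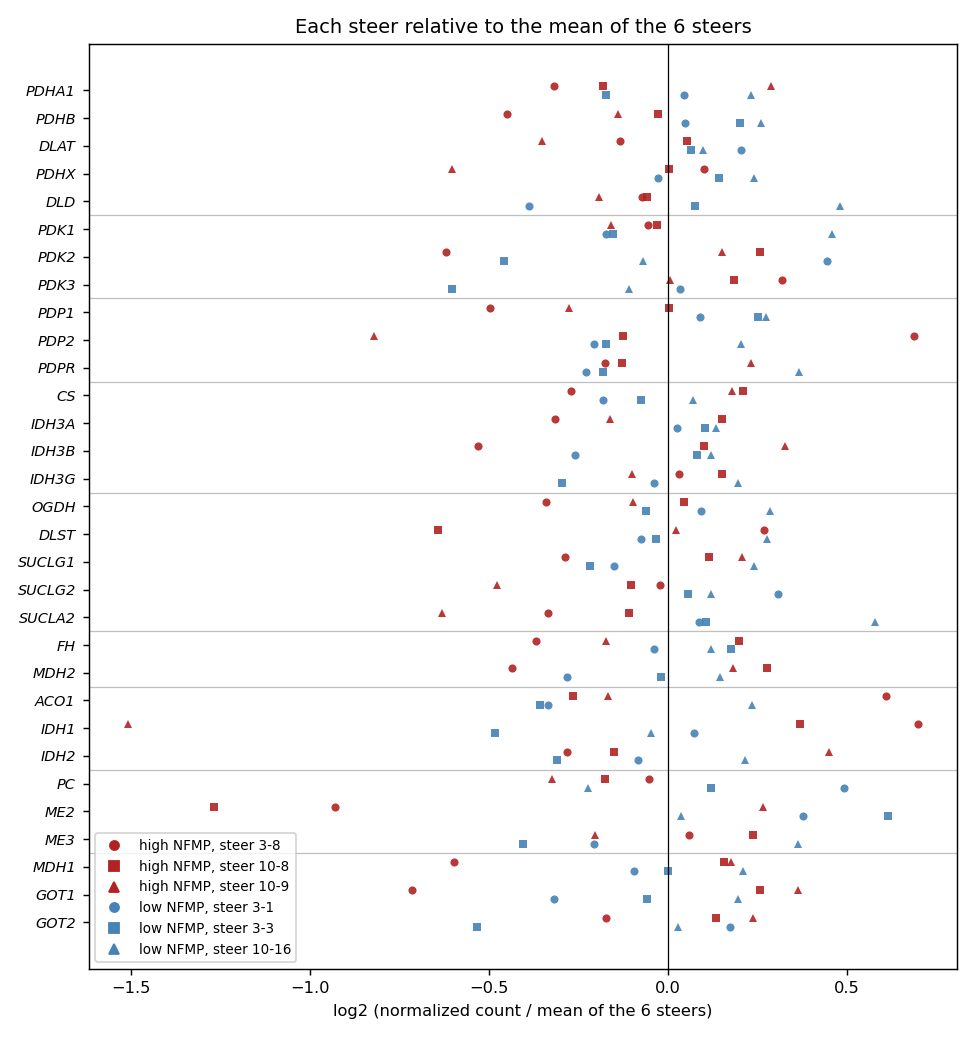
Log2 of each steer's normalized count relative to the mean of the 6 steers for the 31 genes, red for high NFMP and blue for low NFMP. Steer 3-8 (red circles) is lowest for 13 genes and steer 10-16 (blue triangles) is highest for 13, and IDH1 and ME2 show the widest spread.

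Single steers differed across many of the 31 genes at once. Steer 3-8 had the lowest value of the 6 for 13 genes, among them CS, MDH2, MDH1, GOT1, IDH3B and SUCLG1, where 14.9% of all tested rows were lowest in that steer. Steer 10-16 had the highest value for 13 genes and the lowest for 0, where 13.6% and 14.5% of all rows were highest and lowest there. The median SD of the log2 values within groups was 0.281 for the 31 genes and 0.333 over all rows. Steer 3-8 belongs to the high-NFMP and steer 10-16 to the low-NFMP group. Both patterns therefore lie in the direction of lower values in high NFMP. Leaving out steer 10-16 moved the median log2 fold change of the 31 genes from -0.09 to 0.06. Without steer 3-8 that median stayed at -0.09, and without any other steer it lay between -0.14 and -0.01.

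Steer labels begin with 3 or 10, which the labels do not explain, and this first number splits the groups unevenly. Among steers labelled 3, with 1 high-NFMP and 2 low-NFMP steers, the log2 difference was -0.43 for SUCLA2, -1.43 for ME2 and -0.67 for PDP1. Among steers labelled 10, with 2 high-NFMP and 1 low-NFMP steers, it was -0.95, -0.54 and -0.41. The groups of SUCLA2 and PDP1 did not overlap, so any split of the steers gives these genes a negative difference. With the first number as a term in the edgeR fit, the unadjusted p was 0.00663 for SUCLA2, 0.0268 for PDP1, 0.0884 for ME2 and 0.0230 for PDHB, so that ME2 was no longer below 0.05 and PDHB was. With age as a term in the edgeR fit, the unadjusted p was 0.0289 for SUCLA2, 0.132 for ME2 and 0.112 for PDP1.

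Other genes of the pathway were read from a list of 46, of which 45 were in the files and 43 were tested. An unadjusted p below 0.05 was found for 6 of the 43, which is 14.0% beside 11.5% of all rows, with 5 lower and 1 higher in the high-NFMP group. The median log2 fold change of the 43 was -0.01. Of the 6, 3 were among the 8 listed genes for the subunits and assembly factors of succinate dehydrogenase, the enzyme that takes up succinate right after succinyl-CoA ligase and is also complex II of the respiratory chain. The 8 are part of the 43 and were not a group set in advance.

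SDHD, 1 of the 2 membrane anchors of that enzyme, had 538, 799 and 385 normalized counts in the high-NFMP steers compared with 888, 1473 and 986 in the low-NFMP steers. The groups did not overlap, and the log2 fold change was -0.96 (SE 0.27, unadjusted p = 0.0035, adjusted p = 0.168 by edgeR). The adjusted p of SDHD was 0.0403 with DESeq2 and 0.0434 by edgeR with no filter. In the other alternative fits it ran from 0.0698 (edgeR without steer 10-8) to 0.448 (edgeR without steer 3-3). More rows had an adjusted p below 0.05 with DESeq2 (291) and with no filter (240) than in the analysis reported (103). SDHAF4, an assembly factor, had 159, 174 and 166 against 264, 276 and 291, with little spread within either group and a log2 fold change of -0.73 (SE 0.21, unadjusted p = 0.00307, adjusted p = 0.158). SDHC, the other anchor, had 2220, 2944 and 1690 against 3022, 2716 and 3761, a log2 fold change of -0.47 (unadjusted p = 0.0486 by edgeR), and its groups overlapped through steers 10-8 and 3-3. The catalytic subunits SDHA and SDHB had log2 fold changes of 0.02 (95% interval -0.37 to 0.42) and 0.15 (-0.33 to 0.63). The assembly factors SDHAF1, SDHAF2 and SDHAF3 had log2 fold changes of 0.11, -0.33 and -0.55, none at an unadjusted p below 0.05. SDHD and SDHAF4 kept an unadjusted p below 0.05 in all 14 alternative fits, and SDHC lost it in 7, with log2 fold changes of -0.28 without steer 10-9 and -0.30 without steer 10-16.

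Of the other 3 genes, GLUD1, the mitochondrial glutamate dehydrogenase that makes 2-oxoglutarate, had 481, 490.1 and 330.0 against 596, 549 and 650.2 normalized counts, which did not overlap, a log2 fold change of -0.46 (unadjusted p = 0.0373 by edgeR). That p was above 0.05 with age as a term and without steer 10-9, 3-1 or 10-16, and the log2 fold change was -0.29 without steer 10-9. GLUD1 overlaps LOC112444758 in that annotation, which was listed with nearly the same counts, 410 ± 91.4 against 556 ± 62.4. LIPT1, a lipoyltransferase that serves the 2-oxoacid dehydrogenases, rested on few reads, 4, 10 and 5 against 25, 23 and 12 a library, with a log2 fold change of -1.51 (SE 0.59, unadjusted p = 0.0229 by edgeR). Its p was above 0.05 with age (0.0862) or the first label number (0.0612) as a term and without steer 3-8, 10-9, 3-1 or 3-3. SIRT4, a mitochondrial sirtuin known to remove lipoyl groups from DLAT, was the 1 higher gene, with 355, 307 and 323 against 118, 91.6 and 99.95 normalized counts. Its log2 fold change was 1.67 (SE 0.22, adjusted p = 0.00303 by edgeR). A small nuclear RNA gene, LOC112442111, overlaps SIRT4 in that annotation, with a mean of 70.3 normalized counts against 216 for SIRT4. The paper had already reported SIRT4 as higher from these same libraries, and its qPCR gave the same direction without significance. The mitochondrial pyruvate carrier subunits MPC1 and MPC2 had log2 fold changes of 0.39 and -0.18 with unadjusted p of 0.0828 and 0.357 by edgeR.

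**Figure D5:**
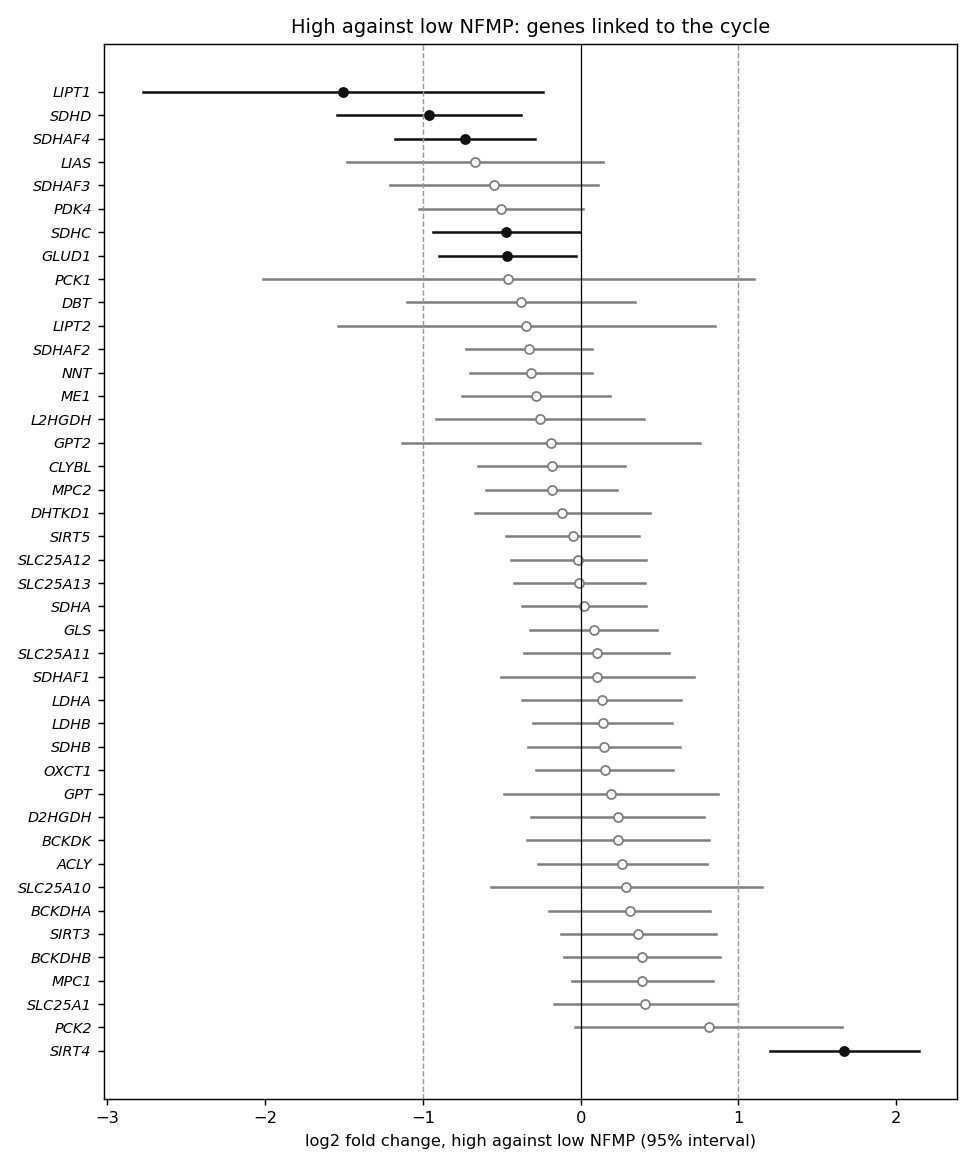
Log2 fold change of high against low NFMP for the tested genes linked to the cycle (1 of the 43 is not shown), with 95% intervals from edgeR's quasi-likelihood fit (n = 3 steers a group), filled black where the unadjusted p was below 0.05, and dashed lines at a fold of 2. SDHD, SDHAF4, SDHC, GLUD1 and LIPT1 lie below 0 and SIRT4 lies above 1.

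Among 12 transcription regulators of mitochondrial genes, 4 had an unadjusted p below 0.05 (11.5% of all rows did), 3 higher (5.73% of all rows) and 1 lower (5.74%). PPARGC1A, the coactivator PGC-1 alpha, had 2849.6, 5121 and 4058 normalized counts in the high-NFMP steers compared with 2849.6, 1730 and 1764 in the low-NFMP steers, a log2 fold change of 0.92 (SE 0.25, adjusted p = 0.145 by edgeR), with steers 3-8 and 3-1 level. Its adjusted p was 0.0294 with DESeq2 and 0.0439 by edgeR with no filter. In the other alternative fits it ran from 0.0521 (edgeR without steer 3-1) to 0.417 (edgeR without steer 3-3). ESRRG, the nuclear receptor partner of PPARGC1A, had 2149 ± 300.0 against 1335 ± 178 (SD, n = 3 each), a log2 fold change of 0.69 (SE 0.19, adjusted p = 0.141 by edgeR and 0.0424 with DESeq2). The adjusted p of ESRRG ran from 0.0984 (edgeR without steer 10-9) to 0.526 (edgeR with age as a term) in the other alternative fits. PPARD, a nuclear receptor of fatty acid oxidation, had a log2 fold change of 1.30 (SE 0.23, adjusted p = 0.017 by edgeR). The adjusted p was 0.0881 without steer 3-8, 0.0524 without 10-9 and 0.106 without 3-3. PPARD had also been reported as higher from these libraries in the paper, where its qPCR gave the same direction without significance. TFAM, the mitochondrial DNA packaging factor, was the lower gene, at -0.50 on the log2 scale (unadjusted p = 0.0419 by edgeR), and it overlaps ZNF239, which had similar counts, 170 ± 16.9 against 231 ± 20.3 where TFAM had 170 ± 29.3 against 241 ± 21.5. The p of TFAM was above 0.05 with age as a term (0.0792) and without steer 3-8, 10-8, 3-3 or 10-16.

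Measures of mitochondrial content and of the cells in the samples are given beside these results, and their part in them was not tested. As a check of the muscle label, the fibre genes were abundant, with summed normalized counts of 178482 to 284445 for 10 slow-fibre genes and 396968 to 583593 for 11 fast-fibre genes in the high-NFMP steers, against 192154 to 248196 and 427925 to 520511 in the low-NFMP steers. Of all tested rows 5.73% were higher and 5.74% were lower at an unadjusted p below 0.05, which is the background for the counts that follow. Of the slow-fibre genes 1 (MYL3, lower) and of the fast-fibre genes 1 (PVALB, higher) had a p below 0.05. Of 32 nuclear respiratory chain genes 1 was lower at that p (UQCRB) and the median log2 fold change was 0.02, while of 13 mRNAs of the mitochondrial genome 3 were higher at that p (ND3, ND5 and ATP6), with log2 fold changes of all 13 from 0.03 to 0.66 and a median of 0.44. The sums of the 13 did not overlap, at 2770970 to 3641070 in the high-NFMP and 1945850 to 2623420 in the low-NFMP steers. Those of the 32 nuclear genes overlapped, at 87078 to 120828 and 100797 to 119240. Of 14 adipocyte genes 6 were higher at that p (ADIPOQ, PLIN4, CIDEC, CIDEA, LIPE and FASN), with a median of 0.58, and their sums were 11682 to 22240 in the high-NFMP and 11861 to 13067 in the low-NFMP steers. In whole muscle, fewer cells of a type and less RNA per cell cannot be told apart.

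Among the other marker lists, of 10 fibroblast and preadipocyte genes 1 was lower (PDGFRA), of 8 endothelial genes 1 was higher (CLDN5), and of 9 tested macrophage and leukocyte genes 1 was higher (AIF1) and 1 lower (ITGAM), where 11.5% of all rows had such a p in either direction. Their summed normalized counts were 14453 to 17824, 1401 to 2047 and 663 to 951 in the high-NFMP steers against 11732 to 14612, 1317 to 1703 and 513 to 936 in the low-NFMP steers. Of 6 red blood cell genes only ALAS2 passed the filter, and HBA, HBA1 and HBB had at most 18.2 normalized counts in any steer.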

How the data were processed

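The LT muscle of 6 steers was profiled, and the steers were grouped from the sample labels (3 high NFMP, 3 low NFMP). The authors prepared 3′ mRNA libraries (SENSE 3′ in the paper, Quant-Seq in the labels) and deposited the read counts by gene symbol, unnormalized, as 1 table a steer. Tophat2 with HTSeq and Bowtie2 with unique and multiple alignments are both named in the methods, and Bowtie2 and bedtools in the submitters' processing notes. The sources used here do not say which of them made these counts. Repeated symbols stayed separate rows. No sequence was used here.

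Analysis used edgeR 4.0.16 (R 4.3.3). Its default filter, with minimum count 10 and minimum total 15, left 15039 of the 23015 rows and 99.85% to 99.89% of all counts. TMM factors lay between 0.915 and 1.083. The groups were compared by the robust quasi-likelihood test with Benjamini-Hochberg adjustment over all tested rows, and standard errors and 95% intervals came from the fold change and the F statistic. The biological coefficient of variation was 25.1%. PCR copies were not marked by molecular identifiers, so reads are not independent molecules. Ratios were taken on counts with 0.5 added.

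All 31 genes are named, with values in every steer for those at an unadjusted p below 0.05 and for the most abundant of each of 9 roles. Linked genes and regulators at that p are named. Values of further genes were added after they were seen. Members and lists were chosen with earlier results of these data known. The list of nuclear respiratory chain genes held 38 symbols, some of them older names, and 32 were matched. Overlapping genes were read from RefSeq annotation (ARS-UCD2.0), where all 31 symbols matched. That assembly is not the one named in the paper, so no coordinates are given. The procedures were tested on simulated counts. DESeq2 1.42.0 and quantile normalization with limma 3.58.1 were among the alternatives. The values of 1 linked gene are not reported here.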

Additional observations from a re-analysis of the deposited data

How the results depend on the processing

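The counts were repeated under 14 alternative fits (a looser and a stricter filter, namely none or a minimum of 10 counts in all libraries, scaling by RLE or by library totals, DESeq2, limma after quantile normalization, a term for age or for the first label number, and the omission of each steer). The number of the 31 genes lower at an unadjusted p below 0.05, 3 in the analysis reported, was 5 with library totals as the scaling, where PDHB and SUCLG2 also passed, and 1 with age as a term. With each steer left out it was between 1 and 2, with 1 without steer 10-9 (ME2), 3-1 (SUCLA2), 3-3 (SUCLA2) or 10-16 (ME2). The number higher was 0 except for 1 (IDH1) without steer 10-9, so it ranged from 0 to 1, as did the numbers past the fold change of 2 and at an adjusted p below 0.05, both 1 (ME2) in that fit and 0 in the others. The linked genes at an unadjusted p below 0.05 numbered 6 and ranged from 3 (without steer 3-1) to 9 (without steer 10-8) when a steer was left out. SUCLA2, ME2 and PDP1 were lower in all 14 fits, at an unadjusted p below 0.05 in 12, 7 and 5 of them. Of the alternative values of the other genes, 48 had the opposite sign, over 19 genes, and 5 had an unadjusted p below 0.05 (PDHB and SUCLG2 in 2 each, IDH1 in 1). Adding 1 or 0.1 in place of 0.5 and leaving out a steer changed the sign of 13 of 104 ratio differences. The values within the first label number were chosen after the data were seen. The labels give no replicate numbers that pair steers across the groups, and the first label number, fitted as a term, left 3 of the 31 genes lower at that p (SUCLA2, PDP1 and PDHB).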
